A study of Anguilla anguilla with 3 samples.

Results

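Mitochondrial ribosomal proteins were followed in the ovary transcriptomes of 3 European eels (Anguilla anguilla), the freshwater and coastal eel that migrates to the ocean to spawn. They were taken as every gene of the deposited table whose protein description holds the words 28S ribosomal protein or 39S ribosomal protein, the mammalian names of the small and the large mitochondrial subunit. The rule found 81 of 45974 genes, 48 for the large and 33 for the small subunit. All 81 descriptions also name the mitochondrion, and 79 of the 81 genes carry a mitochondrial or ribosomal term for their cell compartment, which the rule did not use. A name was given to 80 of them, and these hold 74 distinct protein names, 44 of the large and 30 of the small subunit. A RefSeq eel gene symbol matched 72 of the 74 names, L36 and L54 being the other two.

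The design compared ovary across life stages with 1 eel at each. The yellow eel, the growing stage, came from Lake Veerse in the Netherlands in April, and the post-spawning matured eel came from the same lake in May. The prepubertal silver eel, the stage that turns into the seaward migrant, came from Lake Grevelingen in December, so stage, lake and season cannot be told apart for it. How the matured eel was brought to spawning is not analysed here, and age and body size were not given in the sources used here. Tissue from 3 parts of the gonad was pooled per eel and 10 micrograms of its total RNA went into an Illumina mRNA library. Each library is therefore 1 animal, no difference between stages has a replicate check, and no p-value is given. The libraries hold 27811764 (yellow), 41426808 (silver) and 30137882 (matured) reads. Egg coat and oocyte regulator genes (21 genes) summed to 53834, 39235 and 37453 CPM, the read count on a scale shared by the libraries, in the yellow, silver and matured library, so oocyte transcripts were abundant in all 3.

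Mitochondrial ribosomes translate the few proteins that the mitochondrial genome encodes, which are core subunits of the respiratory chain and of ATP synthase. All of their proteins are encoded in the nucleus, made in the cytosol and imported, and about the ribosomal RNA inside the mitochondrion they form a small subunit that reads the message and a large subunit that joins amino acids. Many of these proteins have bacterial counterparts, while others are found in mitochondria alone. Growing oocytes multiply their mitochondria and pass them to the embryo.

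Transcripts of mitochondrial ribosomal proteins stood highest in the silver eel. Summed over the 81 genes they took 5110 CPM in yellow, 7311 in silver and 4184 in matured ovary. The scaling to CPM used trimmed mean of M-values (TMM) factors, which allow for a few very abundant genes taking up reads. The silver sum was 1.43 times the yellow and 1.75 times the matured sum. As a share of all reads, without those factors, the genes held 0.489% (yellow), 0.666% (silver) and 0.480% (matured). The silver share was 1.36 times the yellow and 1.39 times the matured share, and the shares of the yellow and the matured library differed by 1.02 times. Without the 8 members of the largest silver over yellow ratio the order stayed the same, and the remaining 73 summed to 4683, 6033 and 3805 CPM.

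Gene by gene, the silver library held the highest level of 47 of the 81 members (58.02%), against 33.8% of the 24571 genes with at least 1 CPM on average. The yellow library was highest for 15 and the matured library for 19. All 81 members had reads in every library, between 97 and 14824, and all 81 reached 1 CPM on average. By counting error alone (exact binomial 95% intervals) the silver level lay above both others in 44 members and below both in 12. Reads of an amplified library are not independent molecules, so these and all intervals below cover counting error only and leave out differences between eels. The 44 and 12 have no matching count over all genes, so nothing is read from them. With reads scaled by library totals instead, silver was highest in 42 of 81 (51.9%), against 26.2% of all genes.

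**Figure D1:**
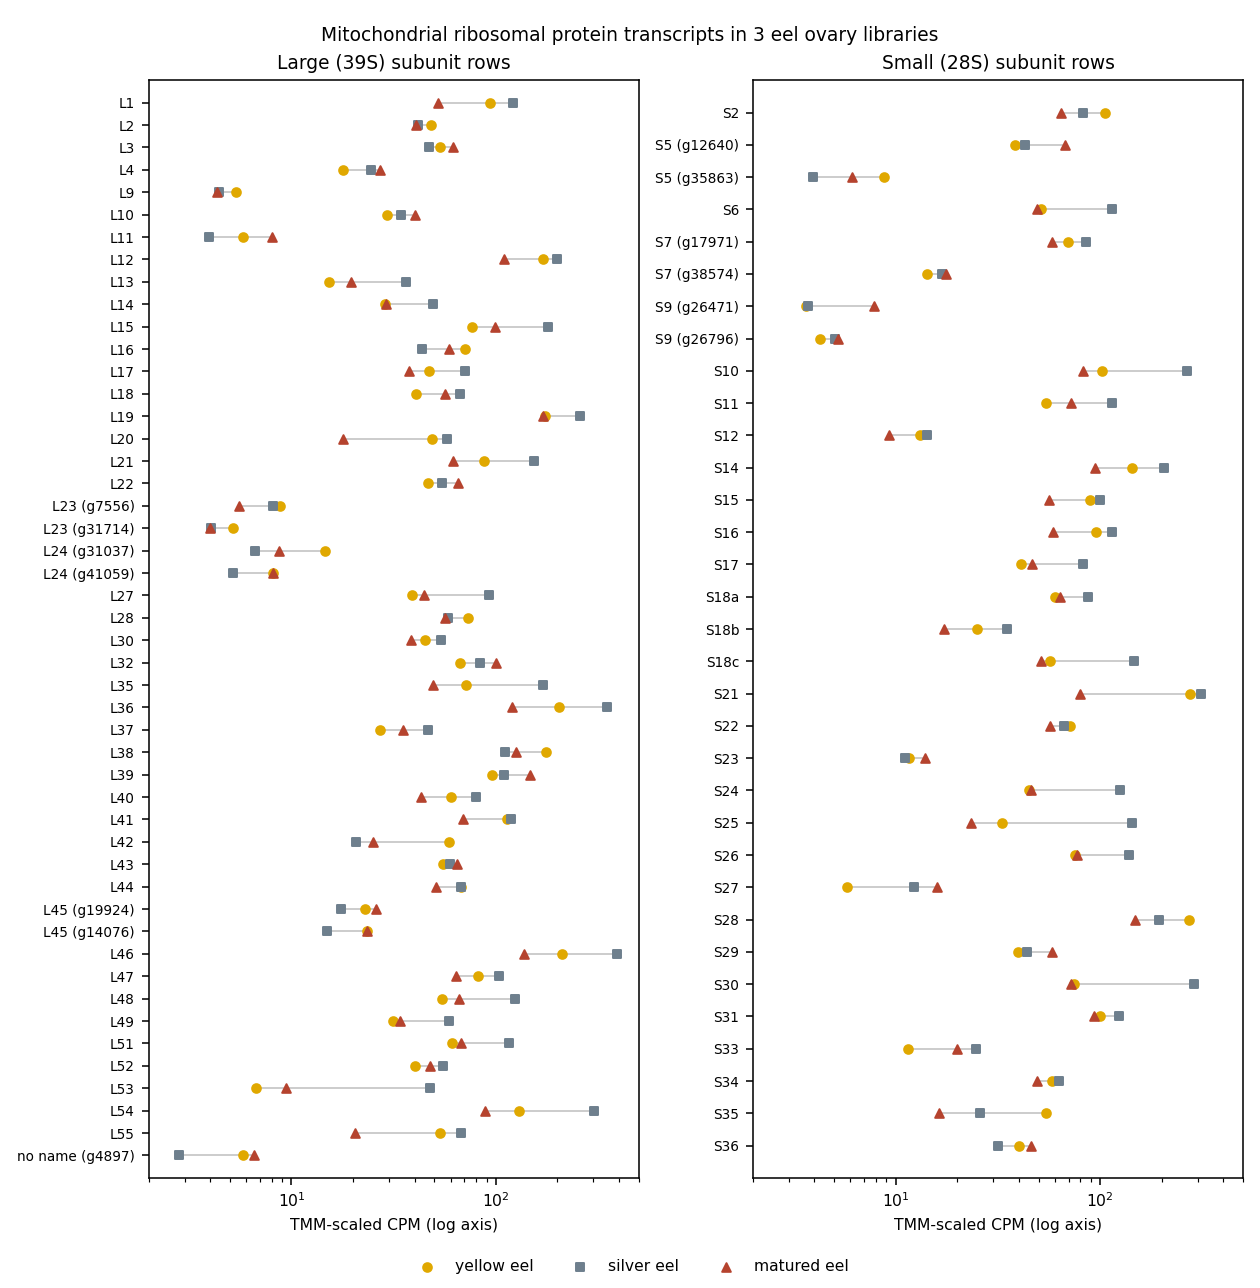
TMM-scaled CPM (log axis) of each of the 81 genes in the yellow (circle), silver (square) and matured (triangle) library, with the large subunit on the left and the small subunit on the right. Each point is 1 library with no replicate; the silver square is the rightmost point in 47 of the 81 lines.

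The median member was 0.26 higher in silver than in yellow on the log2 scale, after adding 1 CPM to both libraries, and 59 of 81 were higher. The middle 50% of the members lay between -0.09 and 0.86. From silver to matured the median was -0.48, with 56 of 81 lower and a middle 50% from -0.90 to 0.16. Between matured and yellow the median was -0.09, with 36 members higher and 45 lower. Over all genes with at least 1 CPM the same medians were 0.01, -0.03 and -0.05. Of these genes 50.4% were higher in silver than in yellow, against 72.8% of the members. Lower in matured than in silver were 51.3%, against 69.1% of the members. Higher in matured than in yellow were 47.6%, close to the 44.4% of the members. Scaling by library totals moved the median of all genes from -0.03 to 0.25 between matured and silver and from -0.05 to 0.18 between matured and yellow. On that scale the members' medians were -0.15 and 0.17, so the direction between matured and yellow turned. Relative to the median of all genes the members lay lower in matured versus silver on both scales. The scalings differ by a constant factor per library, which moves members and all genes nearly alike. Agreement between the scales was thus fixed in advance, here and in matured versus yellow, and is no further support. In matured versus yellow the members and all genes lay close together on both scales (-0.09 and -0.05, 0.17 and 0.18). Among genes of at least 10 CPM on average that order turned, with -0.09 for the members and -0.15 for all genes.

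The 2 subunits followed the same course. The large subunit had medians of 0.29 (silver versus yellow), -0.44 (matured versus silver) and -0.13 (matured versus yellow), and the small subunit had 0.26, -0.54 and -0.09. Silver was highest in 27 of 48 large subunit genes and in 20 of 33 small subunit genes. The split followed the wording of the protein descriptions alone, so genes such as S30 and S36, described below, were counted in the small subunit. Cytosolic ribosomal proteins, which build the ribosomes outside mitochondria, had medians of 0.07, 0.21 and 0.09 over 122 genes, and silver was highest in 36.9% of them. Nuclear genes of oxidative phosphorylation had 0.36, -0.05 and 0.23 over 97 genes, with silver highest in 43.3%. Apart from succinate dehydrogenase, their products assemble with proteins made by mitochondrial ribosomes. Both comparisons with silver use the same silver library, so the low matured versus silver values are not separate from the high silver versus yellow ones.

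**Figure D2:**
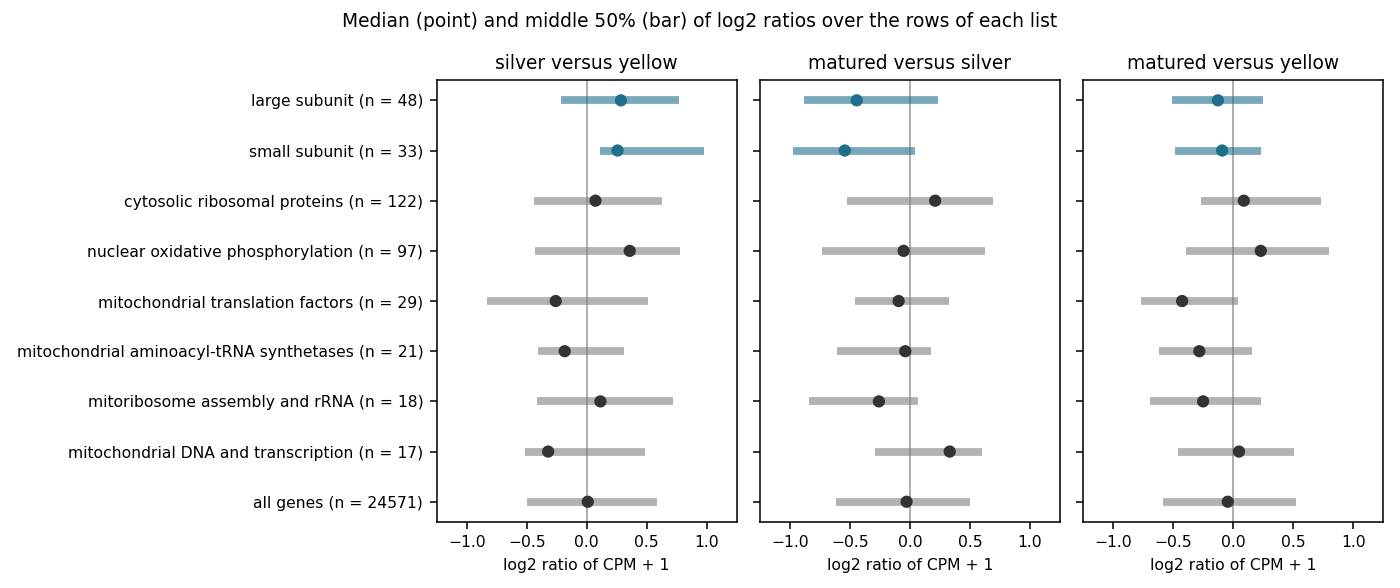
Median (point) and middle 50% (bar) of the log2 ratio of CPM + 1 over the genes of each list, for the 3 pairs of libraries; n is the number of genes with at least 1 CPM on average. The 2 mitochondrial subunits lie right of 0 in silver versus yellow (0.29 and 0.26) and left of 0 in matured versus silver (-0.44 and -0.54).

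**Figure D3:**
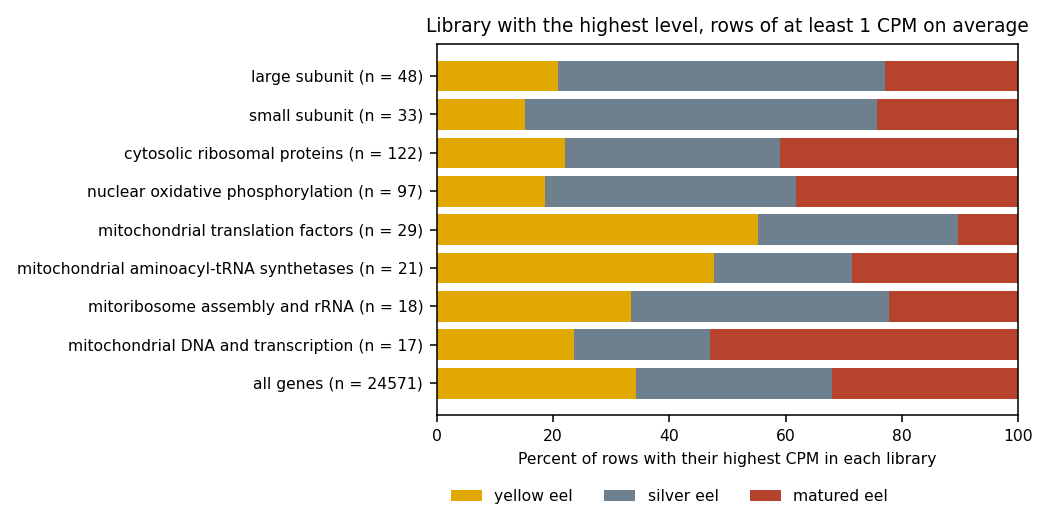
Percent of the genes of each list whose highest CPM was in the yellow, silver or matured library, n as labelled. Silver held the highest level of 27 of 48 large and 20 of 33 small subunit genes, against 33.8% of all genes.

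Markers of other cell types differed between the libraries. Stroma genes (10 collagen and proteoglycan genes, all with reads in each library) summed to 46.2, 81.2 and 912 CPM in yellow, silver and matured. Immune genes (16, of which 1 had no reads in any library) summed to 6.92, 23.1 and 172 CPM. Erythrocyte genes (6) summed to 11.5, 28.8 and 40.9 CPM and granulosa genes (7) to 7.14, 19.2 and 32.5 CPM. Gene by gene, 1 of the 6 erythrocyte genes was lower in matured than in silver. Only 4 granulosa genes reached 1 CPM on average, of which 1 was lower in matured than in silver. In the matured library 1 granulosa gene had no reads. Smooth muscle genes (23, of which 5, 4 and 3 had no reads) summed to 983, 733 and 624 CPM, but gene by gene 10 of the 11 with at least 1 CPM on average were higher in matured than in silver, with a median log2 ratio of 1.296. Oocyte markers, summed in CPM above, held 5.15%, 3.57% and 4.30% of all reads, so their lowest library was matured with the TMM factors and silver without them. The part of these differences in the levels of the mitochondrial ribosomal proteins was not tested, and in bulk tissue fewer cells of a type and less RNA per cell cannot be told apart.

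Large differences were few. A gene was counted as different by 4-fold when its log2 ratio reached that size and the higher of the 2 libraries held 10 CPM or more. Between silver and yellow 2 of the 72 members with that abundance were 4-fold higher (2.78%) and 0 were 4-fold lower, where 3.69% and 1.43% of all such genes were. Between matured and silver 0 of 71 were 4-fold higher and 2 were lower (2.82%), against 2.23% and 4.61% of all genes. Between matured and yellow 0 of 71 passed in either direction, against 3.39% higher and 2.59% lower among all genes. The 2 genes were L53 and S25 in both comparisons with silver.

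At 2-fold the members' counts in the direction of a high silver level lay near the background and those against it lay below it. Silver exceeded yellow 2-fold in 15 of 72 members (20.8%; 18.6% of all genes) and was 2-fold lower in 3 (4.17%; 11.1% of all genes). Matured was 2-fold below silver in 18 of 71 (25.4%; 21.8% of all genes) and 2-fold above it in 0 (9.64% of all genes). Matured was 2-fold above yellow in 1 of 71 (1.41%; 11.4% of all genes) and 2-fold below it in 5 (7.04%; 15.4% of all genes). Scaled by library totals, the last pair of counts was 2 higher and 4 lower. On the authors' RPKM, with 10 RPKM in the higher library, the counts were 13 higher and 5 lower, 3 and 13, and 3 and 4 in the same order of comparisons. The shares of all genes given above belong to the TMM scaling, so nothing is read from the counts on library totals or RPKM.

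The SD of the members' log2 ratios was 0.74 (silver versus yellow), 0.79 (matured versus silver) and 0.57 (matured versus yellow), where all genes had 0.90, 0.95 and 0.96 and cytosolic ribosomal proteins 0.80, 0.86 and 0.72. Over genes of at least 10 CPM on average the SD was 0.71, 0.76 and 0.58 for the members and 0.96, 0.99 and 0.94 for all genes. Abundant genes at large also stood higher in silver. Among genes of at least 10 CPM on average, silver was highest in 66.2% of 71 members and in 42.4% of 11400 genes. The medians were 0.35 and 0.09 in silver versus yellow and -0.63 and -0.22 in matured versus silver. At that abundance 81 nuclear oxidative phosphorylation genes had medians of 0.38 and -0.12, with silver highest in 50.6%. Their silver versus yellow median was thus no lower than that of the members. Cytosolic ribosomal proteins (119 genes) had 0.09 and 0.24, with silver highest in 37.0%.

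Within the large subunit the widest difference belonged to L53 (rm53, gene g8707), a protein of mitochondrial ribosomes with no bacterial counterpart. Its CPM were 6.73 in yellow, 47.6 in silver and 9.42 in matured. The silver level stood far above the other two, by 7.08-fold over yellow (95% interval 6.07 to 8.30) and 5.06-fold over matured (4.49 to 5.71). L54 (g9726), also specific to mitochondria, had 130.4, 302 and 88.7 CPM, which put silver 2.32-fold over yellow (2.23 to 2.41) and 3.41-fold over matured (3.28 to 3.55). L35 (g9978), which has a bacterial counterpart, had 71.5, 170.1 and 49.0 CPM, and silver was 2.38-fold over yellow (2.26 to 2.51) and 3.47-fold over matured (3.29 to 3.66). In both genes the matured level was the lowest, at 1.47-fold below yellow for L54 (1.40 to 1.54) and 1.46-fold for L35 (1.36 to 1.56).

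L27 (g2779), whose bacterial counterpart reaches towards the site of peptide bond formation, had 38.9 CPM in yellow, 92.8 in silver and 44.6 in matured. Its silver level was 2.38-fold over yellow (2.22 to 2.56) and 2.08-fold over matured (1.96 to 2.21). L46 (g3530) and L36 (g9103) were among the most abundant members. L46 had 211, 393 and 138 CPM, with silver 1.86-fold over yellow (1.80 to 1.92) and 2.86-fold over matured (2.77 to 2.95). L36 had 202, 349.6 and 119 CPM, with silver 1.73-fold over yellow (1.67 to 1.78) and 2.93-fold over matured (2.83 to 3.04). L21 (g15697) and L1 (g13826), both with bacterial counterparts, kept the same order at 87.6, 153 and 61.7 CPM and at 93.3, 121 and 52.2 CPM. L18 (g13316) had 40.5, 66.9 and 56.5 CPM, with matured closer to silver than yellow was.

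Other large subunit genes differed by at most 1.28-fold between yellow and silver and were lower in the matured eel. L20 (g15341), which has a bacterial counterpart, had 48.6 and 57.6 CPM in yellow and silver and 17.9 in matured, 2.71-fold below yellow (2.46 to 2.98) and 3.21-fold below silver (2.93 to 3.51). L55 (g9022), specific to mitochondria, had 53.03, 67.7 and 20.4 CPM, with matured 2.60-fold below yellow (2.37 to 2.85) and 3.32-fold below silver (3.05 to 3.61). L12 (g20601), the stalk protein that recruits translation factors to the ribosome, had 171, 199.7 and 109.7 CPM, so matured was 1.82-fold below silver (1.75 to 1.89). L41 (g9805) had 113, 118 and 69.0 CPM, and its silver and yellow levels did not differ beyond counting error (1.04-fold, 0.996 to 1.09).

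Several large subunit genes ran the other way. L42 (g23335), specific to mitochondria, had 58.8 CPM in yellow, 20.7 in silver and 25.1 in matured. Yellow was 2.85-fold over silver (2.61 to 3.11) and 2.35-fold over matured (2.16 to 2.55), the widest excess of yellow over silver among the members of at least 10 CPM. L38 (g8177) had 175, 111 and 125 CPM and L16 (g11283), a core protein with a bacterial counterpart, 70.9, 43.5 and 58.7 CPM, with silver the lowest in both. The matured library was highest for L39 (g11281) at 95.9, 109 and 146 CPM and for L32 (g3024) at 66.5, 83.4 and 101 CPM. L39 was 1.52-fold over yellow (1.45 to 1.60) in the matured eel and L32 1.51-fold (1.43 to 1.60). L4 (g9502) had 17.9, 24.4 and 27.1 CPM and L3 (g3226) 53.4, 46.8 and 61.8 CPM, also highest in the matured library. L11 (g37121), the protein at the base of the stalk, was a low gene with 5.83, 3.95 and 8.03 CPM, where matured was 2.03-fold over silver (1.66 to 2.50).

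In the small subunit S25 (rt25, g631), a protein specific to mitochondria, had 33.0 CPM in yellow, 142 in silver and 23.2 in matured. Silver was 4.31-fold over yellow (4.01 to 4.63) and 6.13-fold over matured (5.69 to 6.61), and the yellow and matured levels were the closer pair. S30 (g7937), which is named for the small subunit but sits in the large subunit in mammalian structures, had 74.2, 289 and 72.1 CPM. Its silver level was 3.89-fold over yellow (3.71 to 4.08) and 4.004-fold over matured (3.83 to 4.18), just short of the 4-fold rule once 1 CPM was added (log2 -1.99 in matured versus silver). The yellow and matured levels of S30 did not differ beyond counting error with the TMM scaling (matured over yellow 0.972, 0.916 to 1.03). That log2 ratio was -0.04 and became 0.22 with library totals, so the likeness depends on the scaling.

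S24 (g23384), the counterpart of bacterial ribosomal protein uS3, had 44.8 CPM in yellow, 124 in silver and 46.0 in matured, with silver 2.78-fold over yellow (2.61 to 2.97) and 2.71-fold over matured (2.56 to 2.87). S10 (g14303), also with a bacterial counterpart, had 101, 264 and 82.6 CPM, with silver 2.60-fold over yellow (2.50 to 2.72) and 3.20-fold over matured (3.07 to 3.33). S14 (g20415) had 143, 205 and 93.7 CPM, with silver 2.19-fold over matured (2.10 to 2.28). With the TMM scaling S24 thus had like levels in yellow and matured, while S10 and S14 were lowest in matured. For S24 the matured versus yellow log2 ratio was 0.04, and 0.30 with library totals. For S10 the gap of matured to yellow (1.23-fold, 1.16 to 1.29) is close to the shift between the 2 scalings.

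Vertebrates keep 3 S18 genes, whose products occupy different places in the mitochondrial ribosome. S18c (g9362) had 56.7, 147 and 51.4 CPM, with silver 2.59-fold over yellow (2.45 to 2.75) and 2.86-fold over matured (2.71 to 3.02). Its relatives, named after their values were seen, differed less: S18a (g5916) had 60.03, 87.0 and 63.4 CPM and S18b (g19460) 25.1, 34.8 and 17.2 CPM. All 3 had their highest level in silver, by 2.59-fold over yellow for S18c against 1.45-fold (1.36 to 1.54) for S18a and 1.39-fold (1.26 to 1.53) for S18b.

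S21 (g16574), which has a bacterial counterpart, was the clearest case of a low matured level. It had 275 CPM in yellow, 311 in silver and 79.9 in matured, so matured was 3.44-fold below yellow (3.29 to 3.60) and 3.89-fold below silver (3.73 to 4.05). S35 (g24724), specific to mitochondria, was highest in yellow at 54.5, 25.7 and 16.2 CPM. Yellow was 2.12-fold over silver (1.95 to 2.30) and 3.37-fold over matured (3.05 to 3.72). S28 (g13728), another highest in yellow, had 272, 193 and 147 CPM, with yellow 1.85-fold over matured (1.78 to 1.92).

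The remaining small subunit genes named here differed in which library was highest. S27 (g2912), a member of the pentatricopeptide repeat family of RNA-binding proteins, had 5.75, 12.3 and 15.8 CPM. It was the only member of at least 10 CPM that was 2-fold higher in matured than in yellow, at 2.75-fold (2.30 to 3.32). S33 (g22102), specific to mitochondria, had 11.5, 24.7 and 19.9 CPM, with silver 2.15-fold over yellow (1.89 to 2.45). S29 (g21632), the GTP-binding protein also known in human as death-associated protein DAP3, had 39.6, 43.7 and 58.1 CPM, with matured 1.47-fold over yellow (1.36 to 1.58). S36 (g17202), which in mammals is now counted as a subunit of 2-oxoglutarate dehydrogenase and not of the ribosome, had 40.3, 31.6 and 45.9 CPM, lowest in silver. S12 (g40303), a protein of the decoding site, had 13.1, 14.2 and 9.22 CPM, with silver 1.54-fold over matured (1.34 to 1.78).

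Among pairs that lie next to each other in the genome, L46 and S11 were the only member symbols adjacent in the RefSeq gene table. S11 (g3531), named for this position, had 54.4, 115 and 72.0 CPM beside the 211, 393 and 138 CPM of L46. Silver was highest in both, but S11 was 2.10-fold over yellow (1.98 to 2.24) and 1.59-fold over matured (1.51 to 1.67) where L46 was 1.86-fold and 2.86-fold. The lowest level was thus in yellow for S11 and in matured for L46.

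Levels of different genes can be compared per transcript length, for which the authors' length- and depth-scaled read values (RPKM) were used. The median RPKM of the 81 members was 44.9 in yellow, 46.5 in silver and 45.8 in matured, and unlike the TMM-scaled CPM these values rest on library totals. The 75th percentile differed more, at 65.9, 92.2 and 65.4 RPKM. By mean RPKM over the 3 libraries the highest members were L36 (248), S28 (224), L46 (219), S14 (145), L21 (132) and S21 (128). The order among them changed with stage, since S28 led in yellow (289.6 RPKM) and L36 in silver (365 RPKM). In the matured library S28 led again (188 RPKM), ahead of L36 (157 RPKM). The lowest by mean RPKM were L9 (3.22), S27 (7.69), L14 (8.05), S9 g26471 (10.8), the unnamed large subunit gene g4897 (11.6) and S5 g35863 (13.5). L9 (g24550) had 5.37, 4.43 and 4.31 TMM-scaled CPM, none of which differed beyond counting error on that scale. L14 (g11637), on the longest transcript of the set, had 28.8, 49.1 and 29.1 CPM, and g4897 had 5.83, 2.81 and 6.53 CPM.

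The members were also read beside their transcript length. The members' longest transcripts ran from 140 to 4374 bp with a median of 1132, against 1324 over all genes with at least 1 CPM. Of the 13 members of up to 500 bp, 1 (S12) was highest in silver, while 46 of the 68 longer members were. The share of all genes highest in silver was not counted by length, so nothing is read from these counts. The short members had a median of -0.29 in silver versus yellow and 0.35 in matured versus silver, where all genes of that length had -0.24 and 0.09. Members of 501 to 1000 bp had 0.71 and -0.90 (all genes -0.05 and -0.04), those of 1001 to 1500 bp had 0.19 and -0.54 (0.08 and -0.15), and those over 1500 bp had 0.35 and -0.51 (0.18 and -0.07). With the length trend of all genes taken out, the 81 members kept medians of 0.26 and -0.39. Over the 81 members the rank correlation of length with the log2 ratio was 0.20 in silver versus yellow and -0.14 in matured versus silver, a description of genes that share their libraries.

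**Figure D4:**
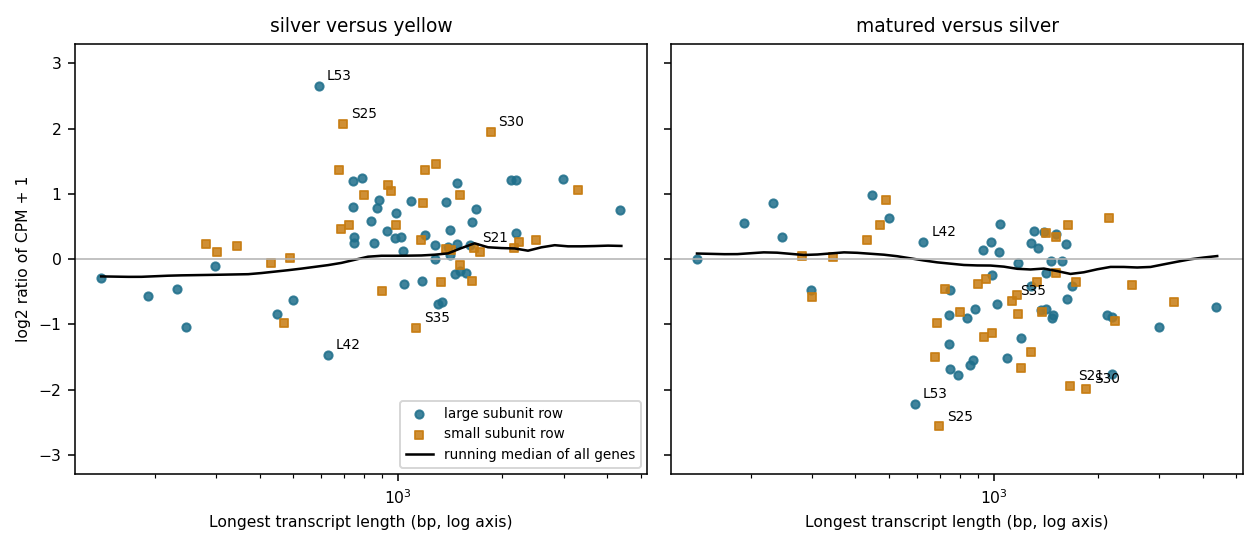
Log2 ratio of CPM + 1 against longest transcript length (log axis, bp) for the 81 genes in silver versus yellow (left) and matured versus silver (right); circles are large and squares small subunit genes, and the line is the running median of all genes. Genes of 501 to 1000 bp lie at medians of 0.71 and -0.90, and those of up to 500 bp at -0.29 and 0.35.

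Of the 13 short members 9 shared their protein name with another member. In all 6 names were carried by a pair of predicted genes while RefSeq holds 1 gene for each, and whether a pair is 2 pieces of the same gene was not tested. In every member at least 99.9% of the reads aligned uniquely. For S5, g12640 (2155 bp) had 38.1, 42.9 and 67.1 CPM and g35863 (471 bp) had 8.76, 3.95 and 6.13 CPM, so the longer was highest in matured and the shorter in yellow. S7 had its highest level in silver for g17971 (69.6, 85.2 and 58.1 CPM) and in matured for g38574 (14.3, 16.9 and 17.6 CPM). The matured and silver levels of g38574 did not differ beyond counting error with the TMM scaling (matured over silver 1.04, 0.928 to 1.16). Their log2 ratio was 0.05, and 0.37 with library totals. L23, a protein near the exit tunnel, was highest in yellow in both genes, with 5.15, 4.03 and 4.02 CPM for g31714 and 8.80, 8.09 and 5.52 CPM for g7556. In g7556 the yellow and silver levels did not differ beyond counting error (yellow over silver 1.09, 0.913 to 1.29). L45 had 23.5, 14.9 and 23.5 CPM for g14076 and 23.0, 17.5 and 25.9 CPM for g19924, lowest in silver in both. L24 had 14.6, 6.60 and 8.67 CPM for g31037 and 8.16, 5.17 and 8.09 CPM for g41059, and S9 had 3.65, 3.71 and 7.83 CPM for g26471 and 4.25, 5.04 and 5.20 CPM for g26796.

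The members were also grouped by protein name, after their values were seen, into proteins with a bacterial counterpart and those taken as found in mitochondria alone. The former (49 genes) had medians of 0.25, -0.57 and -0.25 in silver versus yellow, matured versus silver and matured versus yellow, with silver highest in 28. The latter (30 genes) had 0.43, -0.41 and 0.01, with silver highest in 19. S36 and the unnamed gene were in neither class. L47 (g20986) was put in the latter class although it has a bacterial counterpart, so nothing is read from the contrast between the classes.

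The other steps of mitochondrial translation were read beside the ribosome itself. Their 2-fold counts, over genes with 10 CPM in the higher library, stand against the same shares of all genes as above: 18.6% higher and 11.1% lower in silver versus yellow, 9.64% and 21.8% in matured versus silver, and 11.4% and 15.4% in matured versus yellow. With so few genes in each list nothing is read from these counts. Translation factors (29 genes), which start, extend and end the chain, had medians of -0.26 in silver versus yellow, -0.09 in matured versus silver and -0.43 in matured versus yellow. At 2-fold 1 was higher and 3 were lower of 21 in silver versus yellow, 0 and 3 of 21 in matured versus silver, and 0 and 3 of 20 in matured versus yellow. The release factor gene rf1ml (g19043) had 42.1, 113 and 56.4 CPM, 2.69-fold higher in silver than in yellow (2.52 to 2.88). The elongation factor Tu gene (eftu, g24145), whose product brings aminoacyl-tRNA to the ribosome, had 42.8, 15.8 and 31.2 CPM, 2.72-fold higher in yellow than in silver (2.46 to 3.004). OXA1L (g28750), which inserts newly made proteins into the inner membrane, had 112, 165 and 41.6 CPM, with silver 3.97-fold over matured (3.75 to 4.21). In these 3 genes silver was thus highest for the release factor and the insertase and lowest for the elongation factor.

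Mitochondrial aminoacyl-tRNA synthetases (21 genes), which load tRNAs, had medians of -0.18, -0.04 and -0.28. At 2-fold 1 was higher and 0 lower of 14 in silver versus yellow, 0 and 1 of 14 in matured versus silver, and 0 and 2 of 13 in matured versus yellow. The glutamyl-tRNA synthetase gene (syem, g12678) had 38.4, 86.6 and 30.1 CPM, with silver 2.26-fold over yellow (2.10 to 2.42) and 2.88-fold over matured (2.68 to 3.09). The asparaginyl-tRNA synthetase gene (synm, g10567) had 21.6, 15.2 and 9.04 CPM, 2.39-fold lower in matured than in yellow (2.07 to 2.75).

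Genes for assembly of the mitochondrial ribosome and modification of its RNA (18 genes) had medians of 0.11, -0.26 and -0.25. At 2-fold 4 were higher and 2 lower of 16 in silver versus yellow, 0 and 4 of 16 in matured versus silver, and 1 and 2 of 16 in matured versus yellow. Silver was highest in 8 of the 18 genes (44.4%, against 33.8% of all genes), and in 5 with library totals (27.8%, against 26.2%). Among the genes named here for their large ratios, several factors of large subunit assembly were highest in silver. MALSU1 (cg030, g1750) had 46.7, 174 and 61.2 CPM, with silver 3.72-fold over yellow (3.50 to 3.95) and 2.84-fold over matured (2.70 to 2.98). The GTPase MTG1 (g27484) had 28.9, 88.9 and 21.7 CPM, 3.07-fold over yellow (2.84 to 3.33) and 4.10-fold over matured (3.78 to 4.44) in silver. MPV17L2 (m17l2, g19587) had 41.2, 101 and 31.2 CPM. FASTKD2 (fakd2, g13713), an RNA-binding protein of the same pathway, ran the other way with 64.0, 25.6 and 26.7 CPM.

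Genes for upkeep and transcription of mitochondrial DNA (17 genes) had medians of -0.32, 0.33 and 0.05. Matured was highest in 9 of the 17 (52.9%, against 32.0% of all genes), although the genes named below were highest in yellow or silver. At 2-fold 0 were higher and 1 lower of 12 in silver versus yellow, 1 and 2 of 13 in matured versus silver, and 1 and 0 of 13 in matured versus yellow. The catalytic subunit of the mitochondrial DNA polymerase (dpog1, g2479) had 114, 49.4 and 75.4 CPM, 2.31-fold higher in yellow than in silver (2.18 to 2.45). TFAM (g1008), which packages mitochondrial DNA and starts its transcription, had 52.1, 98.6 and 49.2 CPM. The single-stranded DNA-binding protein gene (ssbp, g17044) had 80.4, 113 and 41.7 CPM, with silver 2.71-fold over matured (2.56 to 2.88). Silver was highest in 34.5% of translation factors, 23.8% of synthetases, 44.4% of assembly genes and 23.5% of the mitochondrial DNA genes. The ribosomal proteins had 58.02% and all genes 33.8%. With library totals the shares were 24.1%, 19.05%, 27.8% and 23.5%, beside 51.9% of the ribosomal proteins and 26.2% of all genes. Among all genes of at least 10 CPM on average silver was highest in 42.4%, and these lists were not counted at that abundance. The lists are also small, so nothing is read from their contrast with the ribosomal proteins.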

How the data were processed

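Ovary mRNA was measured in 3 eels, 1 per stage. The deposited table gives, for each predicted gene, a count that the authors call corrected total reads and in which multiply aligned reads were shared out, per the file headers. Per the file headers, the authors' RPKM divide that count by the length of the longest transcript and by the library's total. The headers name Augustus for gene prediction, Blast2GO for naming and CLC bio software for alignment and counting. DESeq, HTSeq, TopHat2 2.0.5, CASAVA and SAMtools 0.1.18 appear in the submitters' processing notes without their roles. No coordinates are printed, the genome build being not given in the sources used here. RefSeq (fAngAng1.pri) served for symbols and neighbours only.

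For scaling, edgeR 4.0.16 in R 4.3.3 gave the TMM factors (0.957 yellow, 0.910 silver, 1.15 matured). Log2 ratios used CPM + 1. Medians used genes of at least 1 CPM on average. A difference of 4-fold or 2-fold also needed 10 CPM in the higher library. Folds are ratios of scaled counts with exact conditional binomial (Clopper-Pearson) 95% intervals. Other steps ran in Python 3.11.15 (scipy 1.17.1, numpy 2.4.6; pandas 2.3.3, figures by matplotlib 3.10.9). The steps were tested on simulated data. 1 line of column totals was left out, and the authors' DESeq columns were not used.

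The members and lists were chosen with earlier results of these data known. Named members are the 8 highest and 8 lowest of each comparison with 10 CPM, the 6 highest and 6 lowest by mean RPKM, pairs sharing a name, and a few with well-known roles. Of the pathway lists up to 3 genes per list and comparison were eligible. Complex I genes were taken by name and description, because the planned wording matched none. Alternatives were DESeq2 1.42.0 size factors, library totals, unique reads, the authors' RPKM, pseudocounts of 0.1 and 5, other filters and removal of the length trend. 1 gene per protein name and removal of genes under 500 bp were added after the data were seen.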

Additional observations from a re-analysis of the deposited data

How the results depend on the processing

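Every alternative run kept a positive median in silver versus yellow and a negative one in matured versus silver. Library totals alone gave -0.15 (matured versus silver) and 0.17 (matured versus yellow, main -0.09, reversed), and the authors' RPKM, which also rest on library totals, gave -0.15 and 0.17. Matured versus silver was -0.63 over genes of at least 10 CPM on average and -0.57 with 1 gene per protein name. Without genes under 500 bp the medians were 0.38 (silver versus yellow) and -0.66 (matured versus silver). The 4-fold count in matured versus silver went from 2 to 1 with library totals, the RPKM or a pseudocount of 5, which left S25 and lost L53. With a pseudocount of 5 the silver versus yellow count also went from 2 to 1, which left L53. With DESeq2 size factors the matured versus silver count rose to 3, S30 (log2 -2.04) passing beside L53 and S25. Of the 50 named members, library totals changed the sign of 2 in silver versus yellow, 4 in matured versus silver and 4 in matured versus yellow. The RPKM gave the same counts, and DESeq2 size factors and unique reads gave fewer. None of these members had passed 2-fold. A change of scaling moves all genes of a library nearly alike and here by less than 2-fold, so that outcome was fixed in advance. Other causes of these moves were not tested.

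No paired analysis was possible because each stage has 1 eel, and for the same reason leaving out a replicate was not possible. Depth was not limiting for most members: the counting interval of the median member spanned about 0.10 (log2) to each side in silver versus yellow. For the low members, such as L9 and S9, it is wider. Differences between eels of the same stage were not measured, so counting intervals understate the error of every stage difference.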

Other observations

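Some proteins of mitochondrial ribosomes carry other descriptions and so were outside the 81 genes; they are given as values, chosen with the rule's wording in view. The gene named rt63 (g19244) had 151, 182 and 69.9 CPM in the yellow, silver and matured library. The peptidyl-tRNA hydrolase ICT1 (g8190), which is built into the large subunit in mammals, had 37.8, 77.8 and 29.9 CPM. Its silver level was 2.06-fold over yellow (95% counting interval 1.91 to 2.21). CHCHD1 (chch1), a small subunit protein in mammals, had 82.8, 145 and 44.9 CPM, with silver highest and matured lowest as in ICT1 and rt63. The pentatricopeptide repeat protein PTCD3 was carried by a pair of genes, g13479 with 241, 147 and 118 CPM and g9976 with 177, 158 and 155 CPM. Both were highest in yellow with the TMM scaling. On the authors' RPKM g9976 was highest in matured (186, 158 and 194). Only 2097 of 4717, 2509 of 5968 and 1846 of 5353 reads of g9976 aligned uniquely, unlike those of the 81 genes. The gene named g45ip had 40.7, 39.7 and 30.5 CPM.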
